A study of Mus musculus with 30 samples.

Results

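VL30 retrotransposons and murine leukaemia virus-like (MuLV-like) proviruses are mouse repeats related to gammaretroviruses, and 8 of their repeat families were quantified in mouse sperm RNA. MMVL30-int, RLTR6_Mm and RLTR6-int carry names of VL30 elements and of their long terminal repeat (LTR). MuLV-int, RLTR4_MM-int and RLTR4_Mm carry names of MuLV-like proviruses and their LTR, and MuRRS-int and MuRRS4-int those of murine retrovirus-related sequences. The families were picked by name, but the choice of these names was made on measured values, because MMVL30-int was the element that passed the test between tesaglitazar-injected (Tesa-inj) and vehicle-injected (Vehicle-inj) males at 46 days. They are 8 of 3082 features at 46 days, of which 584 are transposable elements, and 8 of 16242 features at 24 h, of which 633 are transposable elements. Values from the comparison at 46 days are therefore a description, and tests are read at 24 h, which the choice did not use.

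A provirus of this kind is an internal part, marked "-int" in the family name, between copies of an LTR that holds its promoter and its polyadenylation signal. MuLV-like proviruses can encode Gag, Pol and Env, whereas VL30 elements encode no functional viral proteins and are known for RNA that is packaged into MuLV particles. In embryonic cells, the zinc finger protein ZFP809 binds the primer binding site of many such proviruses and recruits TRIM28 and the histone methyltransferase SETDB1, and in male germ cells piRNAs guide the silencing of many retrotransposons. A family's count adds up reads from its copies across the genome, so it does not tell which copy was transcribed.

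The study asked whether tesaglitazar, an agonist of the nuclear receptors PPARα and PPARγ, alters RNA in sperm. C57Bl/6J males that were 3 months old received intraperitoneal tesaglitazar at 10 μg/kg, or vehicle (DMSO in saline), 2 times per week over 4 weeks. Cauda sperm was obtained by swim-up and treated with a buffer that lyses somatic cells. Sperm taken 46 days after the last injection gave total RNA depleted of rRNA (7 Tesa-inj and 7 Vehicle-inj libraries), and sperm taken after 24 h gave polyadenylated RNA (4 and 4 libraries). The study's text gives fewer Tesa-inj sperm samples for the later time than the table holds and does not name what was left out; every library was used here. The labels do not say whether each library came from its own male, so p-values measure the spread between libraries.

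At 46 days the libraries held 4538102 to 13513816 counts, but the 5 most abundant features took a very different part of them in each. The other features held 158852 counts in KG8-02 (Tesa-inj) and 7119432 in KG8-14 (Vehicle-inj). The 8 families together took 268 counts in KG8-02 and 10328 in KG8-14. At 24 h the libraries held 15337589 to 27709990 counts, with 81786 to 343299 of them on the 8 families. Levels are given as CPM, counts relative to the library size scaled by the trimmed mean of M-values (TMM), unless library totals are named. TMM factors ran from 0.0981 in KG8-02 to 8.15 in KG8-14 at 46 days and from 0.771 to 1.57 at 24 h. Levels are not compared between families, because family lengths were not used here. One library at 46 days, KG8-12 (Tesa-inj), stood apart from the other 13 in these families, and values are given with and without it.

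MMVL30-int, the internal part of VL30 elements, had 21.5 CPM in the lowest, 31.7 in the median and 654 in the highest Tesa-inj library at 46 days, and 19.8, 29.9 and 35.2 CPM in Vehicle-inj. RLTR6_Mm, the LTR of VL30 elements, had 1.16, 2.17 and 75.4 CPM in Tesa-inj and 1.35, 2.30 and 3.59 CPM in Vehicle-inj. For both, KG8-12 was the highest library, the other 6 Tesa-inj libraries lay below the highest Vehicle-inj library, and the groups overlapped. In bulk RNA, fewer cells of a type and less RNA per cell cannot be told apart. RLTR6-int had 39.2, 74.5 and 97.6 CPM in Tesa-inj and 53.9, 91.9 and 98.8 CPM in Vehicle-inj. In this internal part KG8-12, with 68.1 CPM, was not high, KG8-01 and KG8-11 were the lowest Tesa-inj libraries, and the groups overlapped.

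Among the MuLV-like families at 46 days, MuLV-int had 6.36 CPM in the lowest, 11.2 in the median and 95.5 in the highest Tesa-inj library, against 7.54, 12.6 and 14.5 CPM in Vehicle-inj. RLTR4_MM-int, the internal part named with the RLTR4 repeat, had 12.2, 16.8 and 172 CPM in Tesa-inj and 11.1, 17.7 and 26.5 CPM in Vehicle-inj. Its LTR, RLTR4_Mm, had 0.452, 2.36 and 34.3 CPM in Tesa-inj and 1.04, 1.90 and 2.25 CPM in Vehicle-inj. KG8-12 was again the highest library in each of the 3 families, and the medians of the groups lay within the spread of the other libraries.

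The retrovirus-related sequences did not share this pattern. MuRRS-int had 9.47 CPM in the lowest, 34.1 in the median and 93.2 in the highest Tesa-inj library, and 13.3, 29.9 and 43.0 CPM in Vehicle-inj. MuRRS4-int had 13.6, 32.3 and 51.0 CPM in Tesa-inj and 22.4, 49.5 and 60.02 CPM in Vehicle-inj. The highest MuRRS-int level was that of KG8-02, where it rested on 80.1 counts, while KG8-12 had 41.3 CPM of MuRRS-int and 20.5 of MuRRS4-int, within the range of the others.

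**Figure D1:**
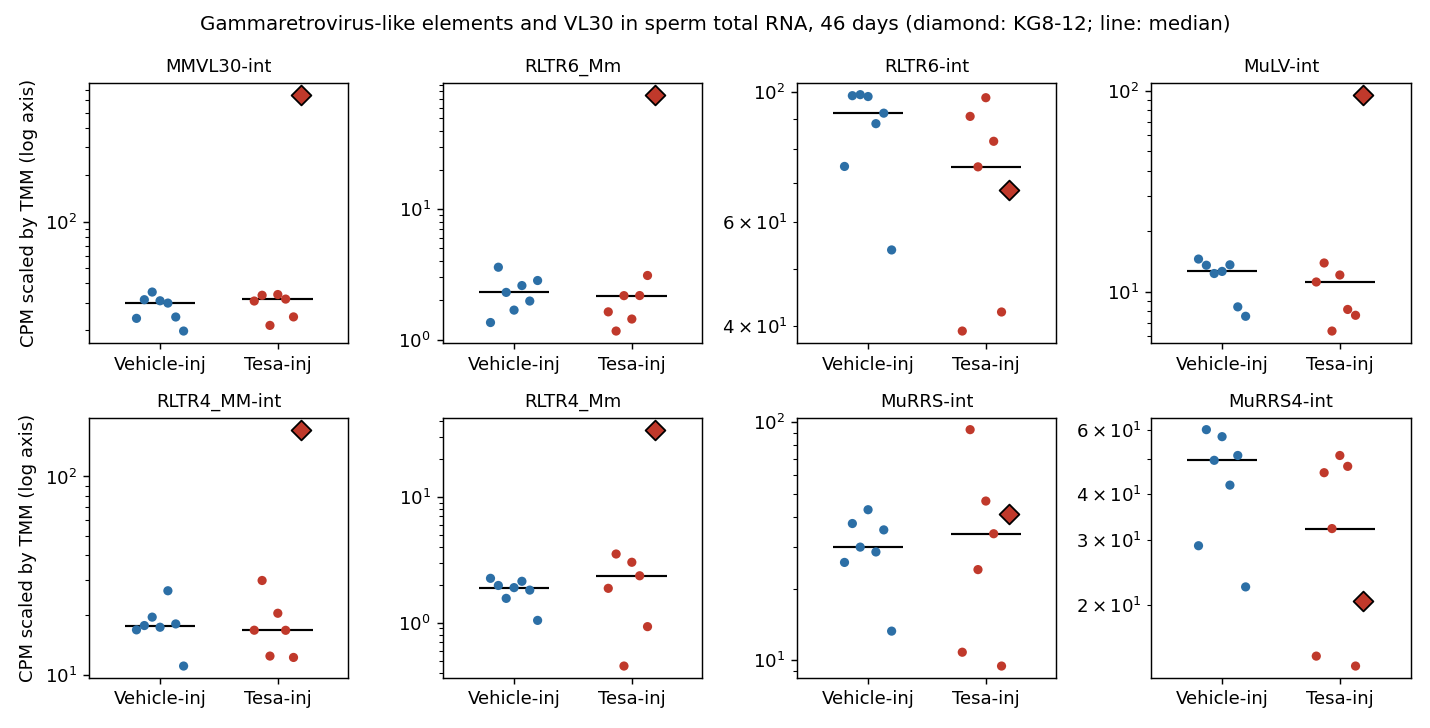
Level of each of the 8 families in sperm total RNA 46 days after the last injection, as CPM scaled by TMM on a log axis, with a point per library, a line at the group median, blue for Vehicle-inj and red for Tesa-inj, and a diamond for KG8-12. In MMVL30-int the diamond lies at 654 CPM and every other library at or below 35.2, while in RLTR6-int it lies at 68.1 CPM, within the range of the others.

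Of the 8 families, 6 met the minimum of more than 20 counts in 6 or more libraries and entered the fit at 46 days; RLTR4_Mm and RLTR6_Mm exceeded 20 counts in 5 libraries each and did not. For RLTR6_Mm rounding decided this, since its estimated count in KG8-03 was 20.467 and was rounded to 20. The log2 fold changes, Tesa-inj over Vehicle-inj, were 2.08 (SE 0.75) for MMVL30-int, 1.12 (SE 0.55) for RLTR4_MM-int and 0.88 (SE 0.55) for MuLV-int. MuRRS-int had 0.23 (SE 0.42), RLTR6-int -0.29 (SE 0.22) and MuRRS4-int -0.49 (SE 0.33). With no count filter, RLTR6_Mm had 2.33 (SE 0.88) and RLTR4_Mm 1.80 (SE 0.78). For RLTR6_Mm the mean level was 12.4 CPM in Tesa-inj against 2.33 in Vehicle-inj, but 1.95 against 2.33 without KG8-12. For RLTR4_Mm it was 6.63 against 1.81 CPM, and 2.03 against 1.81 without KG8-12. Without KG8-12 the log2 fold change was 0.03 (SE 0.17) for MMVL30-int, -0.10 (SE 0.24) for RLTR4_MM-int, -0.34 (SE 0.22) for MuLV-int, 0.14 (SE 0.47) for MuRRS-int, -0.32 (SE 0.25) for RLTR6-int and -0.44 (SE 0.36) for MuRRS4-int. With KG8-12 among the libraries, DESeq2 gave 0.06 for MMVL30-int, -0.06 for RLTR4_MM-int and -0.27 for MuLV-int. Limma voom with quality weights gave 0.06, -0.25 and -0.44. As run, both tools can lessen the pull of an outlying library, so a dependence on the tool cannot be told apart from that on KG8-12. When library totals were used instead of TMM, each of the 6 was below 0, from -0.12 for MMVL30-int to -1.97 for MuRRS4-int, where the median of all features tested moved from -0.03 to -1.09.

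A feature was called when its adjusted p was under 0.05 by the quasi-likelihood test of edgeR, the test used throughout unless another is named. Fitted over all features, it called 0 of the 6 families and 0 of 2866 features (0%), with 152 at an unadjusted p under 0.05; DESeq2 and limma voom called 0 features and the exact test of edgeR 14, none of them among the 6 but C3 and C4b among the 14. Without KG8-12 it called 0 of 2966 features (0%), with 92 at an unadjusted p under 0.05, and the exact test 1, not among the 6. Fitted on the elements alone, it called 1 of the 6 families, MMVL30-int, which was 1 of 567 elements (0.176%), and without KG8-12 it called 0 of 577 (0%), with 13 at an unadjusted p under 0.05 and 0 by the exact test. Leaving out KG8-01 gave 6 elements, KG8-13 4, KG8-11 2, and any of KG8-02 to KG8-06, KG8-08 and KG8-09 gave 3. The groups did not overlap in 0 of the 6 families and in 1 of 2866 features (0.0349%). Of the 6 families 4 were higher in Tesa-inj by TMM and 0 by library totals, with a median of 0.55 by TMM, while 36 of 567 elements were higher by TMM, with a median of -0.25. Nothing is read from these counts, because the families were chosen on this comparison.

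How far KG8-12 stood from the other libraries depended on the scaling. By CPM scaled by TMM, its MMVL30-int level was 18.6-fold that of the next library, KG8-08. By library totals it had 206.9 CPM against 161 in KG8-14, a ratio of 1.28, and as a share of the counts of all elements 0.148% against 0.0835%, a ratio of 1.77. The estimated counts behind these values were 1655 in KG8-12 and 1549 in KG8-14, whose TMM factors were 0.316 and 8.15. On either CPM scale KG8-12 was the highest library for MMVL30-int, RLTR6_Mm and RLTR4_Mm, whereas for RLTR4_MM-int and MuLV-int it was highest by TMM and had the rank 4 and 5 of 14 by library totals.

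Ratios between families within a library do not change with scaling. The ratio of MMVL30-int to RLTR6-int was 9.61 in KG8-12 and 0.265 to 0.786 in the other 13 libraries, with a median of 0.347. That of RLTR6_Mm to RLTR6-int was 1.11 in KG8-12 and 0.0128 to 0.0734 in the others. KG8-01 and KG8-11, both Tesa-inj, had the next highest ratios of MMVL30-int to RLTR6-int, 0.786 and 0.576. Their RLTR6-int levels, 39.2 and 42.3 CPM, were the lowest of all libraries at 46 days. Their MMVL30-int levels, 30.8 and 24.4 CPM, lay within the range of the Vehicle-inj libraries. For the LTR of VL30 and its internal part, RLTR6_Mm to MMVL30-int was 0.115 in KG8-12, within the 0.0347 to 0.144 of the others. The median of the others was 0.0687, and their lowest, in KG8-02, rested on 1 count of RLTR6_Mm. In the same way MuLV-int to RLTR4_MM-int was 0.555 in KG8-12, within 0.464 to 0.862. RLTR4_Mm to RLTR4_MM-int was 0.199, above the 0.0364 to 0.148 of the others, and MMVL30-int to RLTR4_MM-int was 3.80, above their 1.12 to 1.99.

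As a share of the counts on the 8 families, MMVL30-int took 56.3% in KG8-12 and 10.4% to 24.3% in the other 13 libraries at 46 days. RLTR6-int took 5.86% in KG8-12 and 29.1% to 42.9% in the others, and MuRRS4-int 1.77% and 11.4% to 22.7%. MuRRS-int took 29.9% in KG8-02, its highest share, and 3.56% in KG8-12, its lowest. The 8 families together made up 0.263% of the element counts in KG8-12, within the 0.0663% to 0.557% of the other libraries, whereas by TMM their summed level was 1161 CPM in KG8-12 and 114 to 312 in the others. By library totals it was 367 CPM, within the range of the others.

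**Figure D2:**
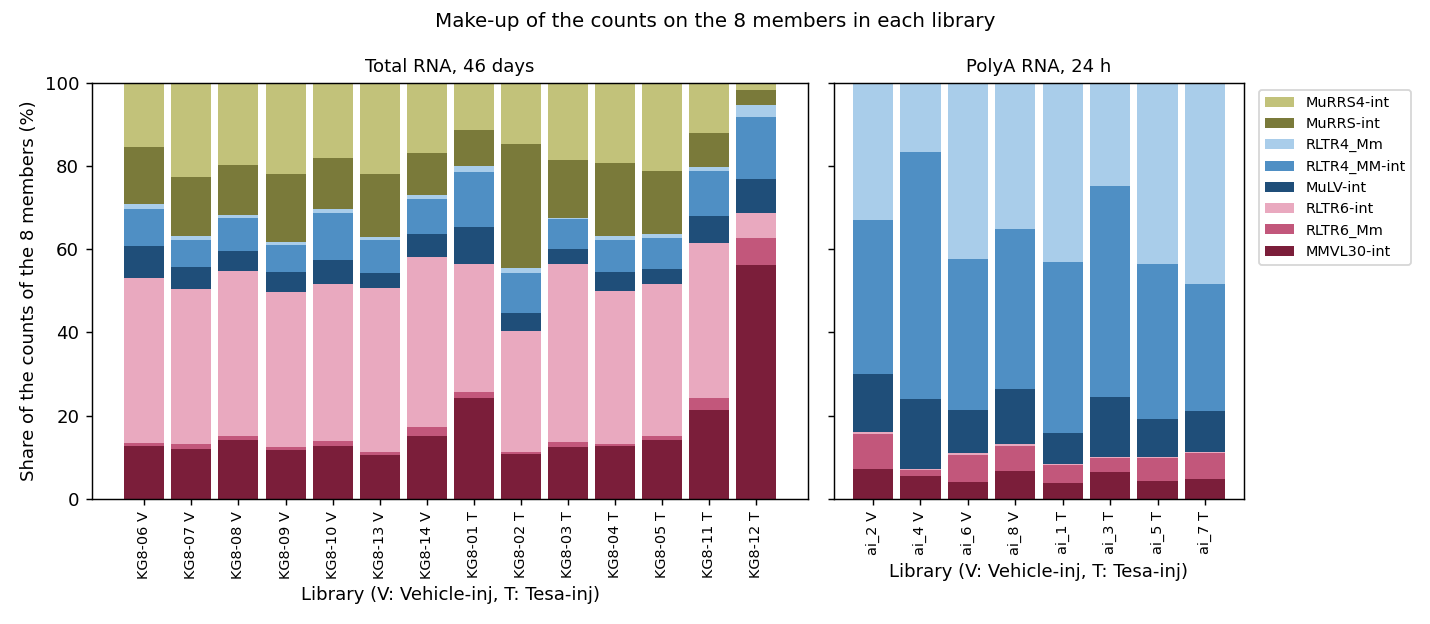
Share of the counts on the 8 families taken by each family, in percent, as stacked bars per library for total RNA at 46 days (left) and polyadenylated RNA at 24 h (right), with V for Vehicle-inj and T for Tesa-inj. MMVL30-int takes 56.3% in KG8-12 and at most 24.3% in every other library at 46 days. At 24 h RLTR4_MM-int takes 30.6% to 59.3% and RLTR4_Mm 16.6% to 48.2%.

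Set against all 584 elements, by the ratio of the KG8-12 level to the median of the other 13 libraries, RLTR6_Mm had rank 1 (34.7-fold), MMVL30-int rank 2 (21.2-fold) and RLTR4_Mm rank 3 (18.04-fold). RLTR4_MM-int had rank 5 (9.92-fold) and MuLV-int rank 6 (7.90-fold), with ORR1A3, a non-autonomous LTR element, at rank 4 (12.0-fold). By library totals the ratios to the median were 12.3 for RLTR6_Mm, 7.22 for MMVL30-int, 6.16 for RLTR4_Mm, 3.08 for RLTR4_MM-int and 2.59 for MuLV-int. By TMM MuRRS-int had rank 136, RLTR6-int 472 and MuRRS4-int 570. On this TMM scale the median element had a ratio of 1.09, and in 80 of the 584 elements KG8-12 was above every other library. The ratios by library totals have no such background over the elements here. Related families that the choice by name left out were examined after the tables had been seen. RLTR6B_Mm, an LTR whose name places it beside RLTR6_Mm, had 24.8 CPM in KG8-12 and 1.54 to 8.78 in the other libraries by TMM. Its estimated counts were 62.7 of 7999348 in KG8-12 and 432 of 9617533 in KG8-14, so by library totals KG8-12 was not the highest. The gammaretrovirus-like MMERGLN-int had 22.7 CPM in KG8-12 against 9.59 to 40.4, and MURVY-int, a repeat of the Y chromosome, 21.6 against 11.9 to 45.2, both within the range of the others. Their LTRs had 4.16 CPM against 0.911 to 4.72 (MMERGLN_LTR) and 15.9 CPM against 5.21 to 15.8 (MURVY-LTR).

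Other RNAs moved with these families in KG8-12. C3 and C4b, complement proteins made by liver and other secretory tissues, were the 2 of 14 liver and secretory markers in the table at 46 days. Their summed level was 2083 CPM in KG8-12 and 2.78 to 13.0 in the other 13 libraries, with C3 as the more abundant at 1654 CPM in KG8-12. The albumin and apolipoprotein markers of the list were not among the features analysed at 46 days. The 18 of 20 sperm and late spermatid markers in the table summed to 576 CPM in KG8-12, the lowest but for the 488 of KG8-13, with 708 to 1165 in the other 12 libraries. In KG8-12 the level of each of them except Pgk2 lay below the median of the other 13 libraries, with 100.4 CPM against 153 for Prm2, a protamine of sperm chromatin and the most abundant of them. Vwf was the 1 of 6 endothelial markers in the table, with 29.4 CPM in KG8-12 against 22.1 to 70.7. None of the 20 leukocyte, 27 epididymal, 7 blood, 12 smooth muscle and stroma, 6 adipose and 9 testis soma markers was among the features analysed at 46 days, so these cell types could not be examined. No marker in the table at 46 days was at 0 in any library. The part of RNA of other cells in the levels of KG8-12 was not tested.

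The features most like MMVL30-int were ranked by Pearson's r of log2 CPM across libraries, as a description without p-values, since libraries share depth and scaling. Only features that entered the fit were ranked, so RLTR6_Mm and RLTR4_Mm have no rank at 46 days. Over the 14 libraries at 46 days the closest elements were RLTR4_MM-int (r = 0.957, rho = 0.701), MuLV-int (r = 0.946, rho = 0.512), ORR1A3 (r = 0.763, rho = 0.437), L1Md_T (r = 0.696, rho = 0.187) and RLTR6B_Mm (r = 0.657, rho = 0.345). The closest other features were C3 (r = 0.960, rho = 0.565), Iqgap2 (r = 0.958, rho = 0.0418), Rpph1 (r = 0.957, rho = 0.301), Snrnp200 (r = 0.955, rho = 0.349) and F5 (r = 0.953, rho = 0.0945). In each of these rho was below r. Over the 13 libraries without it, the closest elements were RLTR4_MM-int (r = 0.735, rho = 0.626), RLTRETN_Mm (r = 0.679, rho = 0.665), RLTR9F (r = 0.662, rho = 0.599), MuLV-int (r = 0.655, rho = 0.390) and LTR16E2 (r = 0.622, rho = 0.610), so 2 of the 5 were shared. The closest other features were then Snord17 (r = 0.722, rho = 0.621), Rnu3b1 (r = 0.698, rho = 0.500), RP24-97D9.3 (r = 0.643, rho = 0.582), Znfx1 (r = 0.626, rho = 0.703) and Antxr2 (r = 0.610, rho = 0.698), and 0 of the 5 were shared. RLTR6-int went from rank 460 of 566 elements (r = 0.00347, rho = 0.442) to rank 136 (r = 0.455, rho = 0.643) when KG8-12 was left out.

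At 24 h all 8 families entered the fit, and this comparison was not used to choose them. MMVL30-int had 257, 549, 313 and 380.0 CPM in the Tesa-inj libraries ai_1, ai_3, ai_5 and ai_7, and 484, 517, 299 and 425 CPM in the Vehicle-inj libraries ai_2, ai_4, ai_6 and ai_8. The highest library was Tesa-inj and the groups overlapped, with 375 ± 126 CPM (SD, n = 4) against 431 ± 96.0 (SD, n = 4). Its log2 fold change was -0.20 (SE 0.29), with an unadjusted p of 0.508 by edgeR, and it was 0.06 with library totals. In the same library order RLTR6_Mm had 302, 299, 396 and 488 CPM in Tesa-inj and 572, 139.9, 484 and 381 CPM in Vehicle-inj. The highest and the lowest library were both Vehicle-inj, and the log2 fold change of RLTR6_Mm was -0.09 (SE 0.39), with an unadjusted p of 0.833 by edgeR, and it was 0.20 with library totals.

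RLTR6-int had the smallest p of the 8 families at 24 h. Its level was 22.0, 33.2, 12.2 and 23.6 CPM in Tesa-inj and 43.9, 42.9, 31.9 and 31.0 CPM in Vehicle-inj. In 3 of 4 Tesa-inj libraries it lay below every Vehicle-inj library, while ai_3 lay above ai_6 and ai_8, so the groups overlapped. The log2 fold change was -0.72 (SE 0.30), with an unadjusted p of 0.0388 and, after Benjamini-Hochberg adjustment over all features, an adjusted p of 1.00 by edgeR. Fitted on the elements alone, the unadjusted p of RLTR6-int was 0.0186 and the adjusted p 0.336 by edgeR. The median over the 541 elements was itself -0.32, and with library totals, which moved the median of all features from -0.02 to 0.19, RLTR6-int had -0.47 (SE 0.36), with ai_7 as the highest of the 8 libraries at 37.1 CPM.

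RLTR4_Mm, the LTR of the MuLV-like families, had 2988, 2134.5, 3131 and 3798 CPM in Tesa-inj and 2246, 1595, 3124 and 2219.9 CPM in Vehicle-inj. RLTR4_MM-int had 2863, 4407, 2679 and 2411 CPM in Tesa-inj and 2529, 5708, 2697 and 2446 CPM in Vehicle-inj. MuLV-int had 521, 1234, 657 and 765 CPM in Tesa-inj and 949, 1606, 769 and 843 CPM in Vehicle-inj. In both internal parts ai_4 (Vehicle-inj) was highest and ai_3 (Tesa-inj) next, and in the LTR ai_4 was lowest and ai_3 next to it, so that the groups overlapped in each. The log2 fold change was 0.39 (SE 0.32) for RLTR4_Mm, -0.11 (SE 0.38) for RLTR4_MM-int and -0.39 (SE 0.35) for MuLV-int, with an unadjusted p of 0.242, 0.768 and 0.293 by edgeR. With library totals RLTR4_MM-int had 0.11, while RLTR4_Mm stayed above and MuLV-int below 0. MuRRS-int ranged from 2.63 to 8.96 CPM and MuRRS4-int from 4.48 to 9.90 CPM over the 8 libraries, with log2 fold changes of 0.11 (SE 0.47) and -0.14 (SE 0.37).

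**Figure D3:**
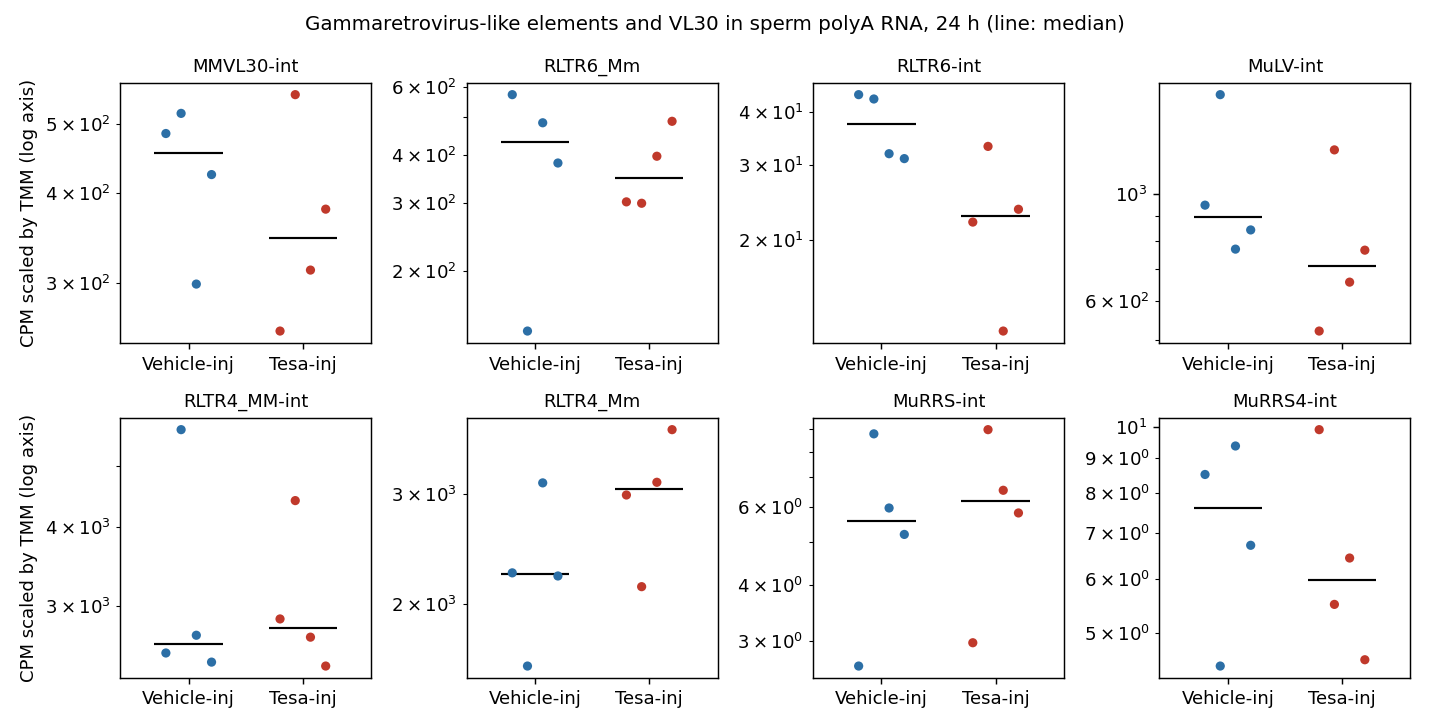
Level of each of the 8 families in polyadenylated sperm RNA 24 h after the last injection, as CPM scaled by TMM on a log axis, with a point per library, a line at the group median, blue for Vehicle-inj and red for Tesa-inj. The groups overlap in each family; in RLTR6-int the 4 Tesa-inj libraries lie at 12.2 to 33.2 CPM and the 4 Vehicle-inj libraries at 31.0 to 43.9.

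At 24 h, 0 of the 8 families and 0 of 13752 features (0%) were called by edgeR's quasi-likelihood test, and the exact test, DESeq2 and limma voom called 0 as well. At an unadjusted p under 0.05 the quasi-likelihood test gave 372 features (2.71%), among them 1 of the 8 families, RLTR6-int; the exact test gave 377 features, DESeq2 492 and limma voom 1022. Fitted on the elements alone, the quasi-likelihood test called 0 of 541 (0%), as did the exact test, DESeq2 and limma voom. Its unadjusted p was under 0.05 for 65 (12%), among them RLTR6-int as 1 of the 8. The groups did not overlap in 0 of the 8 families and in 448 of 13752 features (3.26%). Of the 8 families 2 were higher and 6 lower in Tesa-inj by TMM, with a median log2 fold change of -0.13, and 3 of the 6 were above 0 by library totals, while 429 of the 541 elements were lower, with a median of -0.32, and the median over all features tested was -0.02. Whether the effect differed between 24 h and 46 days was not tested for these families.

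Within the 24 h libraries, LTR and internal part did not move together. The ratio of RLTR4_Mm to RLTR4_MM-int was 1.04, 0.484, 1.17 and 1.58 in Tesa-inj and 0.888, 0.279, 1.16 and 0.908 in Vehicle-inj. The ratio of RLTR6_Mm to MMVL30-int was 1.17, 0.546, 1.27 and 1.28 in Tesa-inj and 1.18, 0.271, 1.62 and 0.896 in Vehicle-inj. In both ratios, examined together with the markers after their values were seen, ai_4 was lowest and ai_3 next, 1 library of each group. These libraries also had the lowest summed level of the 20 sperm and late spermatid markers, 4263 CPM in ai_4 and 6184 in ai_3, against 8014 to 13671 in the other 6 libraries, with Odf1, a protein of the sperm tail, as the most abundant marker. The leukocyte markers, 19 of 20 in the table, summed to 1302 CPM in ai_4 and 1399.8 in ai_3, also the lowest, and to 1623 to 2661 in the others. Their most abundant gene was Cd52, at 1029 to 2382 CPM, which epididymal epithelium also expresses. Without Cd52 the sum was 273 CPM in ai_4 and 329 in ai_3, and these were not the lowest libraries, with 221 to 448 in the others. The smooth muscle and stroma markers were highest in ai_4 and ai_3, at 243 and 171 CPM, with 63.4 to 163 in the others. The part of cell content in the ratios was not tested.

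The other marker lists at 24 h were as follows over the 8 libraries. Epididymal markers (17 of 27 in the table) summed to 2036 to 4135 CPM, led by the secreted protease inhibitor Spink8. Liver and secretory markers (6 of 14) summed to 54.0 to 145 CPM, led by C3, and the highest library was ai_4. Blood markers (4 of 7) summed to 53.5 to 269.9 CPM, led by the haemoglobin gene Hba-a2, and smooth muscle and stroma markers (10 of 12) to 63.4 to 243 CPM, led by Fn1. Endothelial markers (2 of 6) summed to 18.6 to 56.0 CPM, led by Vwf, adipose markers (2 of 6) to 2.03 to 6.34 CPM, led by Fabp4, and Sox9, the 1 of 9 testis soma markers in the table, ranged from 1.504 to 4.49 CPM. At 24 h, at most 1 marker of a list was at 0 in a library. The median log2 fold change at 24 h was 0.05 over the sperm, -0.17 over the leukocyte, 0.04 over the epididymal, -0.20 over the secretory, -0.35 over the blood and 0.15 over the smooth muscle and stroma markers. It was -0.09 over the endothelial and 0.03 over the adipose markers and 0.36 for Sox9, against -0.02 over all features tested. No marker of these lists was called by edgeR's quasi-likelihood test at 24 h or 46 days, while the exact test called C3 and C4b at 46 days. Its unadjusted p was under 0.05 for Vwf at 24 h and for C3 and C4b at 46 days.

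Genes that silence retroviruses at the level of chromatin were, at 24 h, 25 of 31 in the table, and each of the 25 was tested. By edgeR's quasi-likelihood test 0 were called, and the unadjusted p was under 0.05 for 0; 11 were above and 14 below 0, with a median log2 fold change of -0.02, equal to that of all features tested. Zfp809, the zinc finger protein that recognises proviral primer binding sites, had 3.52 ± 0.633 CPM (SD, n = 4) in Tesa-inj against 5.69 ± 1.202 (SD, n = 4). Its log2 fold change was -0.69 (SE 0.36), with an unadjusted p of 0.0852 by edgeR. Morc2a, an ATPase of the HUSH silencing pathway, had 11.6 ± 6.06 CPM (SD, n = 4) against 20.2 ± 8.73 (SD, n = 4), a log2 fold change of -0.81 (SE 0.43). Of the piRNA pathway, 16 of 22 genes were in the table and 12 were tested, of which 0 were called and 0 reached an unadjusted p under 0.05, with 6 higher, 6 lower and a median of -0.17. Between 0 and 3 of the 16 were at 0 in a library. Mael, needed for transposon silencing in the male germline, had 4.31 ± 1.89 CPM (SD, n = 4) against 7.34 ± 2.59 (SD, n = 4), and Piwil2, a PIWI protein, 1.199 ± 1.00 CPM (SD, n = 4) against 2.21 ± 1.58 (SD, n = 4).

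Factors that restrict murine retroviruses after entry or at release were all 15 in the table at 24 h and tested. None was called by edgeR's quasi-likelihood test, and 2 reached an unadjusted p under 0.05, with 6 higher, 9 lower and a median log2 fold change of -0.08. Apobec3, a cytidine deaminase packaged into virions, had 19.8 ± 6.64 CPM (SD, n = 4) in Tesa-inj against 35.0 ± 13.1 (SD, n = 4). Its log2 fold change was -0.82 (SE 0.33), with an unadjusted p of 0.0339 by edgeR. Trex1, an exonuclease that degrades reverse-transcribed DNA, had 6.40 ± 2.18 CPM (SD, n = 4) against 2.60 ± 1.36 (SD, n = 4), a log2 fold change of 1.30 (SE 0.57). Its unadjusted p was 0.0443 by edgeR. Of the cell surface receptors used by murine gammaretroviruses, 5 of 6 were in the table and tested, 0 were called and 1 reached an unadjusted p under 0.05, with 1 higher, 4 lower and a median of -0.27. That gene was Slc20a2, a phosphate transporter used by amphotropic viruses, with 5.66 ± 1.07 CPM (SD, n = 4) against 3.21 ± 0.482 (SD, n = 4) and a log2 fold change of 0.82 (SE 0.36). Xpr1, a phosphate exporter used by xenotropic and polytropic viruses, had a log2 fold change of -0.64 (SE 0.40). For no gene of the 4 lists was the adjusted p under 0.05, and none is reported as changed.

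At 46 days few of these genes were in the table, among them Fam208a, Morc2a and Chaf1a of the chromatin list, Ddx4, Tdrd6 and Tdrd9 of the piRNA list, Serinc3 of the restriction list and Xpr1 of the receptors. None was called by edgeR's quasi-likelihood test, and Serinc3 alone reached an unadjusted p under 0.05. Serinc3, a membrane protein that lowers the infectivity of retroviral particles, had 53.9 CPM in KG8-12. The median of the other 13 libraries was 3.39 CPM and their highest 4.42. Its estimated counts were 136 of 7999348 in KG8-12 and 288 of 9617533 in KG8-14, so by library totals KG8-12 was not the highest. Fam208a, a subunit of the HUSH complex, had 21.3 CPM in KG8-12 and at most 7.21 in the others. Morc2a, at 16.5 CPM, Ddx4, at 4.35, and Xpr1, at 1.77, were within the range of the other libraries, and Tdrd9 was at 0 in KG8-12. The median log2 fold change was 0.28 over the 4 chromatin genes, 0.12 over the 3 piRNA genes, 1.75 for Serinc3 and 0.00 for Xpr1, against -0.03 over all features tested.

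Between the experiments the mixture of families differed, and time point, RNA selection and library kit differed together, so their parts cannot be told apart. In polyadenylated RNA at 24 h, RLTR4_MM-int took 30.6% to 59.3% of the counts on the 8 families and RLTR4_Mm 16.6% to 48.2%, while RLTR6-int took 0.170% to 0.642%. In total RNA at 46 days without KG8-12, RLTR4_MM-int took 6.60% to 13.2%, RLTR4_Mm 0.260% to 1.48% and RLTR6-int 29.1% to 42.9%. The 8 families made up 4.49% to 11.7% of the element counts at 24 h and 0.0663% to 0.557% at 46 days. The ratio of an LTR to its internal part was higher at 24 h, with RLTR6_Mm to MMVL30-int at 0.271 to 1.62 against 0.0347 to 0.144 at 46 days. MMVL30-int to RLTR6-int was 9.38 to 25.6 at 24 h, a range that holds the 9.61 of KG8-12. The next library at 46 days, at 0.786, lay below that range. In KG8-12 the ratio of MMVL30-int to MuRRS4-int also lay within its range at 24 h, but each other ratio examined lay outside. RLTR6_Mm to RLTR6-int was 1.11 in KG8-12 and 3.26 to 32.4 at 24 h. MMVL30-int to RLTR4_MM-int was 3.80 in KG8-12 and 0.0898 to 0.192 at 24 h. The other libraries at 46 days, at 1.12 to 1.99, lay nearer to that range than KG8-12.

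At 24 h the features most like MMVL30-int across the 8 libraries were the elements ORR1A1-int (r = 0.955, rho = 0.976), MIR3 (r = 0.940, rho = 0.952), L1MB4 (r = 0.928, rho = 0.905), MMERVK10D3_I-int (r = 0.907, rho = 0.905) and MIRc (r = 0.906, rho = 0.881). The closest other features were Ddi2 (r = 0.990, rho = 1), Gdap2 (r = 0.981, rho = 0.976), Gpatch2 (r = 0.978, rho = 0.976), Zfp607 (r = 0.963, rho = 0.898) and Csnk1a1 (r = 0.959, rho = 0.952). Among the 8 families MuLV-int was closest, at rank 9 of 540 elements (r = 0.896, rho = 0.905), followed by RLTR6-int (r = 0.661, rho = 0.714) and RLTR4_MM-int (r = 0.544, rho = 0.238). MuRRS-int had r = 0.376 and rho = 0.429. The correlation was negative for the LTRs RLTR4_Mm (r = -0.743, rho = -0.714) and RLTR6_Mm (r = -0.2998, rho = -0.310) and for the internal part MuRRS4-int (r = -0.599, rho = -0.667).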

How the data were processed

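Sperm RNA was measured in 22 libraries. Per the submitters' processing notes and the study's methods, reads were trimmed with Trim Galore 1.16 and quantified with Salmon 0.11.2 on GENCODE transcripts, piRNA precursors and RepeatMasker elements concatenated by family, for GRCm38. The deposited values are estimated counts per gene or family, which the authors did not normalize; the serum table was not used here. A gene without an entry in a table was not analysed here, and values of some list genes are not reported here.

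Estimated counts were rounded to whole numbers. Elements were recognised by repeat family name. TMM was computed over all features. A feature was tested where 6 libraries at 46 days, or 4 at 24 h (80% of the smallest group), exceeded 20 counts. The main test was quasi-likelihood (edgeR 4.0.16, run under R 4.3.3). P-values were adjusted after Benjamini-Hochberg over all features of a table, or over the elements where they were fitted alone. Alternatives were edgeR's exact test, DESeq2 1.42.0, its size factors in edgeR, voom of limma 3.58.1, library totals, TMM over the elements, no filter, filterByExpr, each library left out and libraries 1 to 10 alone; running them on the elements alone and taking the share of element counts were added after the data were seen. Likeness was Pearson's r of log2 CPM with a prior count of 2. The lists were retroviral silencing, piRNA silencing, restriction, receptors, and markers of sperm, leukocytes, epididymis, liver and secretory tissue, blood, smooth muscle and stroma, endothelium, adipose tissue and testis soma.

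The families and lists were chosen with earlier results of these data known. Named features were all 8 families, the 5 elements and 5 other features most like MMVL30-int, in each pathway list the genes passing the test and the 2 with the smallest p at 24 h, and each marker list's most abundant gene; C4b, Serinc3, Fam208a, ORR1A3, other list genes and related families were named after their values were seen. No libraries held identical values. The fits were tested on simulated data. Other software was the R package data.table (version 1.17.8), Python 3.11.15 and, for plots, matplotlib 3.10.9. Counts carry sampling error, which limits KG8-02 most.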

Additional observations from a re-analysis of the deposited data

Results flagged for a closer look

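In 6 of the 32 combinations of family, group and time examined, 1 library lay far from the rest of its group, measured as its gap to the nearest library divided by the group's whole range. In groups not chosen on their values, about 1 in 20 would show this by chance if levels were normal and groups independent. The families share libraries, and whether their levels were normal was not tested, so the rate is rough. That rate is no measure for 5 of the 6, which concern KG8-12 among the 7 Tesa-inj libraries at 46 days, because the families were chosen on that comparison. The ratio was 0.98 for MMVL30-int (654 CPM, next library 33.9), 0.974 for RLTR6_Mm (75.4 CPM, next 3.10), 0.916 for MuLV-int (95.5 CPM, next 13.9), 0.909 for RLTR4_Mm (34.3 CPM, next 3.52) and 0.89 for RLTR4_MM-int (172 CPM, next 29.9). These 5 share a library and its scaling and are not separate observations. At 24 h the ratio was 0.923 for RLTR4_MM-int in the Vehicle-inj library ai_4, with 5708 CPM and 2697 in the next. The causes were not tested.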

How the results depend on the processing

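No paired analysis was possible because the groups compared share no library numbers. At 46 days over all features, where 0 passed, edgeR's exact test called 14, the same test without KG8-12 called 1, and the elements fitted alone gave 1; every other alternative gave 0. With the elements fitted alone, where 1 passed, alternatives added after the data were seen gave 6 (exact test, with MMVL30-int and RLTR4_MM-int), 4 (limma voom, none of the 8 families), 0 (DESeq2), 0 (TMM over the elements), 540 (library totals, all lower, with MuRRS-int, MuRRS4-int and RLTR6-int), 3 (no filter) and 3 (filterByExpr), these being MMVL30-int, RLTR4_Mm and RLTR6_Mm. Leaving out 1 library gave from 0, without KG8-12, to 6, without KG8-01. RLTR4_Mm and RLTR6_Mm can be called in such fits, since fewer libraries then need to pass the count minimum. The exact test without KG8-12 gave 0, as did libraries 1 to 10. The excess of KG8-12 in MMVL30-int, 18.6-fold, was 1.28 by library totals and 1.77 by share of element counts. At 24 h each alternative gave 0. The cause was not tested.

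Over the alternatives, the log2 fold change of MMVL30-int ran from -0.12 to 2.31 at 46 days and from -0.45 to 0.10 at 24 h. At 24 h RLTR6-int stayed below 0 (-0.95 to -0.41), as did MuLV-int (-0.69 to -0.08), RLTR4_Mm stayed above 0 (0.26 to 0.71), and the other 5 families crossed 0. Depth limits RLTR4_Mm and RLTR6_Mm most at 46 days, with 3.02 and 1 counts in KG8-02.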
